A study of Mus musculus with 2 samples.

Results

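The transcription factors Phox2a, Hand1, Hand2, Gata2, Gata3, Isl1, Mycn and Insm1 were examined in Neuro2a cells, a mouse neuroblastoma line, after transfection with an siRNA against Tmem132a (mKIAA1583) or with a control siRNA that targets no specific gene. They were chosen by name as regulators of sympathoadrenal cells and neuroblastoma: every probe set annotated to exactly 1 of these 8 gene symbols was taken, out of 18193 genes with such a probe set. Each group is the RNA of 1 sample on 1 Affymetrix Mouse Genome 430 2.0 array, so no value has a replicate error, no test between the groups was possible, and the number of arrays limits the precision. The time between transfection and harvest and the siRNA dose are not given in the sources used here.

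Sympathetic neurons and the chromaffin cells of the adrenal medulla descend from the neural crest. Bone morphogenetic protein signals from the dorsal aorta switch on homeodomain proteins such as PHOX2A, which act with HAND2, GATA2, GATA3 and INSM1 to turn on the genes of noradrenaline synthesis, while ISL1 and MYCN act on the number and maturation of the young neurons. Neuroblastoma arises in this lineage, and in human tumours of the noradrenergic type several of these factors bind one another's enhancers as a core regulatory circuit, with MYCN amplified in many high-risk cases.

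The label was checked on the targeted gene first. Tmem132a had a signal of 435.6 on the Tmem132a siRNA array, against 1825.5 on the control siRNA array, a log2 ratio of -2.07. The free text given for the Tmem132a siRNA sample repeats that of the control, and its group was taken from its title. Signals are MAS5 intensities on a linear scale, both arrays had a 2% trimmed mean of 500.003, and a ratio is always Tmem132a siRNA over control siRNA. A gene value is the mean log2 ratio of its probe sets whose mean signal over both arrays reached 77.25, the median of all probe sets, and 10678 genes had one.

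The members were measured by 16 probe sets, of which 14 passed that filter, so that all 8 genes have a value. Hand1 alone reached 2-fold higher on the Tmem132a siRNA array, where 2.1% of all genes did, and 0 members reached 2-fold lower, where 2.44% did. The higher call rests on a dim probe set that a companion probe set contradicts, as described with Hand1. Without Hand1 the ratios ran from -0.51 for Isl1 to 0.13 for Insm1, none of them 1.5-fold. Below 0 were 6 of the 8 members, where 48.2% of all genes were, and 2 lay above 0, where 51.8% did. The median was -0.12 over the members and 0.02 over all genes. In these bulk samples a smaller share of cells that express a gene and less RNA per cell cannot be told apart.

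**Figure D1:**
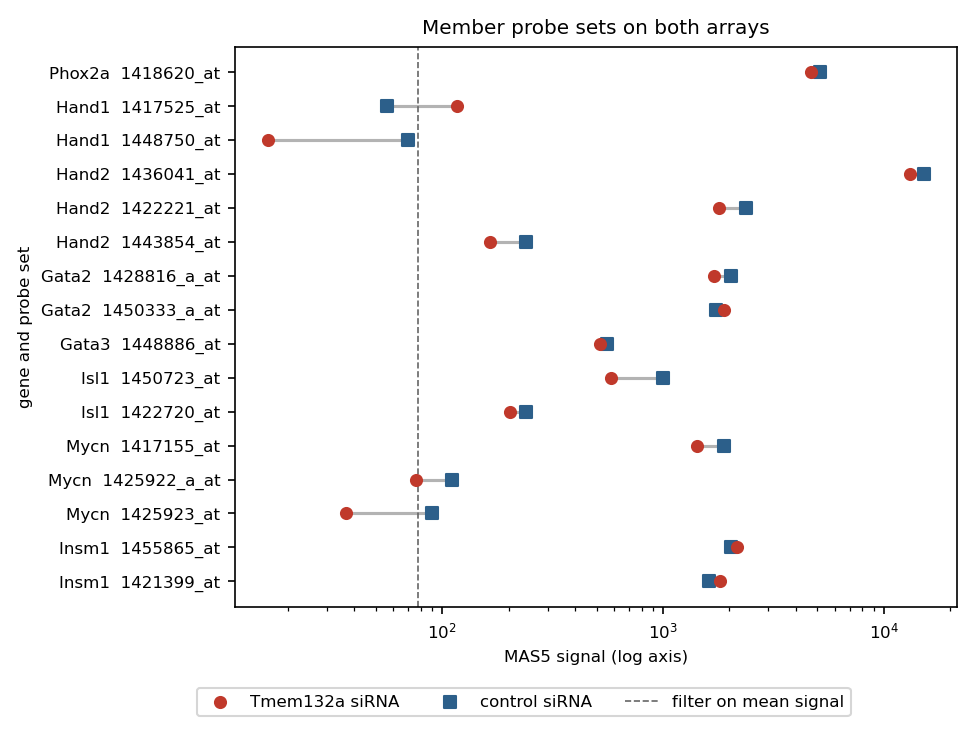
MAS5 signal (log axis) of the 16 member probe sets, a row each, on the Tmem132a siRNA array (red circles) and the control siRNA array (blue squares), with 1 array per group and no error bars. The dashed line is the filter of 77.25 on the mean of both arrays. Distances within a row can be read, while levels of different rows cannot be compared. The Hand2, Isl1 and Mycn rows have the red circle to the left, and the 2 Hand1 rows run in opposite directions.

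The 3 members with the lowest gene ratios were Isl1, Mycn and Hand2, none of them 1.5-fold lower. The 250 bases before their start sites are shown because of that rank alone. The sequences are RefSeq's for GRCm38.p6, in the direction of the gene. Of the 8 members, 6 matched the promoter table, with 7 windows, and Hand1 and Insm1 did not. Capitals mark motif letters searched on both strands. The E-box of bHLH proteins such as HAND2 and MYCN was spelled CANNTG. The core that zinc fingers of the GATA family bind was spelled GATAA. The core bound by homeodomains was spelled TAAT. A homeodomain core and a GATA core can overlap and then share letters. The E-box form preferred by MYC proteins, CACGTG, counts as an E-box too.
Hand2, chr8:57320733-57320982, plus strand: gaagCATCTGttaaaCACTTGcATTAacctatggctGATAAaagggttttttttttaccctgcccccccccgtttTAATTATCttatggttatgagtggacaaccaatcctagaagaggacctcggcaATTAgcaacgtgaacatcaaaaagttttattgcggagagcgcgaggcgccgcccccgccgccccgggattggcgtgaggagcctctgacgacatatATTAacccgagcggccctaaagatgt
Isl1, chr13:116309689-116309938, minus strand: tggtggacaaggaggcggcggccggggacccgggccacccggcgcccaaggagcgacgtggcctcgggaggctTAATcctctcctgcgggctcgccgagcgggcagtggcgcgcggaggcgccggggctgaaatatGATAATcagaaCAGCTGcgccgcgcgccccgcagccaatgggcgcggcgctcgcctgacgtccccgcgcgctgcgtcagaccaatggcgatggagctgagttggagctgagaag
Mycn, chr12:12941837-12942086, minus strand: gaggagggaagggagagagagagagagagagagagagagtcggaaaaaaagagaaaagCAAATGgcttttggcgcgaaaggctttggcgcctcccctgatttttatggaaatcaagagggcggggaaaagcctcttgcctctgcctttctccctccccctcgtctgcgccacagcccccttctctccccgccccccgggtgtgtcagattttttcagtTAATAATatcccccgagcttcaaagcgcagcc

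The Hand2 window held 2 E-box, 2 GATA core and 5 homeodomain core matches. The Isl1 window held 1, 1 and 2 of these kinds, and the Mycn window 1, 0 and 2. Over all 32851 promoter windows of the same length, 66.2% held an E-box, 22.6% a GATA core and 54.9% a homeodomain core, so single matches of the first and last kind are common. None of the 3 held the MYC form of the E-box, which 6.02% of all windows did. Base composition differed among them: GC content was 49.2% for Hand2, 71.2% for Isl1 and 54.8% for Mycn, with 15, 33 and 11 CpG dinucleotides, where the median of all windows was 52.4% and 6. The windows of Gata3 (70%), Phox2a (70.4%) and Gata2 (67.2% and 74%) were GC-rich, above the upper quartile of all windows (61.2%). The Gata3 window and both Gata2 windows held 0 matches of each kind, and the Phox2a window 1 GATA core and 0 of the other kinds. A match is a run of letters and was not tested as a binding site.

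Isl1, a LIM homeodomain factor needed for the survival and maturation of young sympathetic neurons, had the lowest gene ratio of the 8, at -0.51 (1.42-fold lower). On probe set 1450723_at Isl1 gave 581.1 with the Tmem132a siRNA and 997.2 with the control siRNA, a log2 ratio of -0.78. Its dimmer probe set 1422720_at, designed on the same accession, had 202.2 with the Tmem132a siRNA and 238.7 with the control siRNA, a ratio of -0.24. Both lay lower, but by different amounts, with an SD of 0.38 between them. In the signal class from 500 to 2000, which holds 6867 probe sets, 4.28% lay as low as 1450723_at or lower, and the middle 90% of ratios ran from -0.73 to 0.65. Isl2, the paralogue of Isl1, had 227.3 with the Tmem132a siRNA and 216.6 with the control siRNA, a gene ratio of 0.07.

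Mycn, a bHLH factor that drives growth and ribosome production as a dimer with MAX, had a gene ratio of -0.48 (1.40-fold lower). Probe set 1417155_at gave 1427 with the Tmem132a siRNA and 1896.8 with the control siRNA, a ratio of -0.41. Probe set 1425922_a_at gave 75.8 with the Tmem132a siRNA and 111 with the control siRNA, a ratio of -0.55. It passed the filter only through its signal on the control siRNA array, and without it the gene ratio was -0.41. A further probe set, 1425923_at, gave 36.5 with the Tmem132a siRNA and 89.9 with the control siRNA, which is below the filter and enters no gene value. All 3 gave a lower signal on the Tmem132a siRNA array, but only the first was bright on both. In the signal class of the brightest one, 15.8% of probe sets had a ratio as low or lower, so a difference of this size was common on these arrays.

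Hand2, a bHLH factor needed for noradrenergic differentiation of sympathetic neurons, had a gene ratio of -0.38 (1.31-fold lower) with an SD of 0.17 over 3 probe sets. Probe set 1436041_at gave 13190.2 with the Tmem132a siRNA and 15242 with the control siRNA, a ratio of -0.21. The values of 1422221_at were 1789.5 with the Tmem132a siRNA and 2363.8 with the control siRNA, a ratio of -0.40. Those of 1443854_at were 164.1 with the Tmem132a siRNA and 239.3 with the control siRNA, a ratio of -0.54. All 3 lay lower, and the ratio was closer to 0 in the brighter ones.

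Hand1, the paralogue of Hand2 best known from heart and placenta, could not be assigned a direction. Probe set 1417525_at gave 116.1 with the Tmem132a siRNA and 56 with the control siRNA, a ratio of 1.05. Probe set 1448750_at, designed on the same accession, gave 16.2 with the Tmem132a siRNA and 69.8 with the control siRNA, a ratio of -2.11. The first passed the filter only through its signal on the Tmem132a siRNA array, and the second, with a mean of 43, did not pass. The pair runs in opposite directions, so the gene value of 1.05 belongs to 1 probe set. With no filter the gene ratio was -0.53. In the class from 77.25 to 150 the middle 90% of ratios ran from -1.04 to 1.14, which includes the first probe set.

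**Figure D2:**
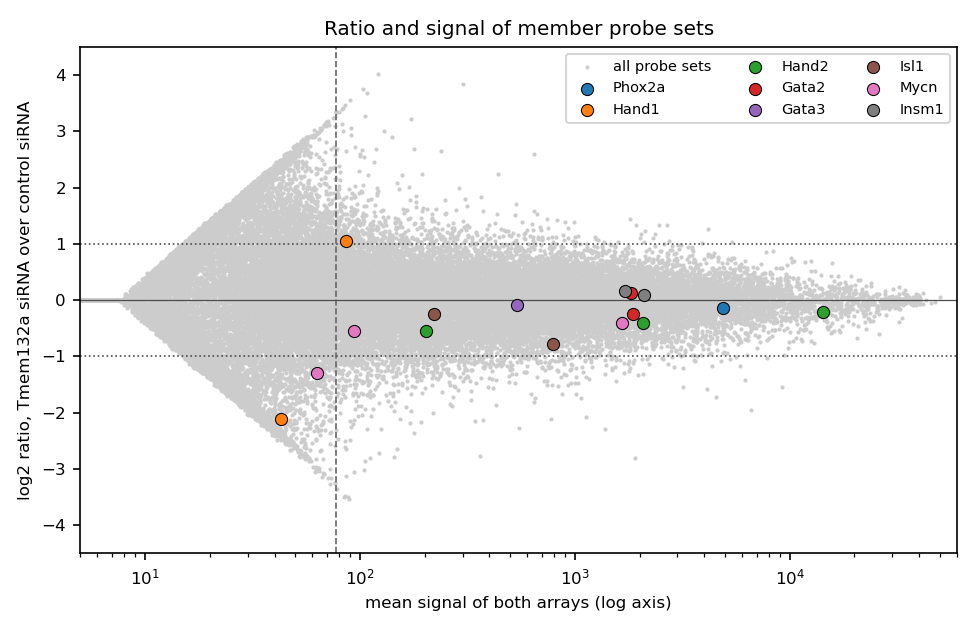
Log2 ratio, Tmem132a siRNA over control siRNA, against the mean signal of both arrays (log axis) for all 45037 probe sets (grey) and the 16 member probe sets (coloured by gene). Dotted lines mark 2-fold and the dashed line the filter of 77.25. Probe sets under the floor of 14.5 on both arrays lie at 0. Ratios spread more widely at low signal, and the 2 Hand1 points lie there on opposite sides of 0.

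Phox2a, the homeodomain factor that acts on the dopamine beta-hydroxylase promoter, differed little. Its only probe set gave 4666.5 with the Tmem132a siRNA and 5143.9 with the control siRNA, a ratio of -0.14. Gata3, a zinc finger factor needed to maintain sympathetic neurons, gave 520.3 with the Tmem132a siRNA and 555.3 with the control siRNA, a ratio of -0.09. Each of these genes rests on 1 probe set.

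The paralogue Gata2 had a gene ratio of -0.07 made of opposite signs. Probe set 1428816_a_at gave 1701 with the Tmem132a siRNA and 2027.7 with the control siRNA, a ratio of -0.25. Probe set 1450333_a_at gave 1894.6 with the Tmem132a siRNA and 1740.5 with the control siRNA, a ratio of 0.12. The probe sets did not agree on a direction, and both are of a kind that can read several transcripts of 1 gene.

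Insm1, a zinc finger repressor needed for endocrine and chromaffin cell differentiation, was the one bright member above 0, with a gene ratio of 0.13. Probe set 1421399_at gave 1809.7 with the Tmem132a siRNA and 1609.7 with the control siRNA, a ratio of 0.17. Probe set 1455865_at gave 2156.9 with the Tmem132a siRNA and 2034.2 with the control siRNA, a ratio of 0.08. Both lay slightly higher, by less than the SD of 0.39 found between probe sets of 1 gene over 5072 genes. The gene ratios of Phox2a, Hand2, Gata2 and Gata3 were also smaller in size than that SD, while those of Isl1, Mycn and Hand1 were larger. That SD is pooled over all signals past the filter within 1 pair of arrays, so it does not measure variation between samples. In the signal class from 77.25 to 150, which holds the Hand1 probe set past the filter, ratios had an SD of 0.71.

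**Figure D3:**
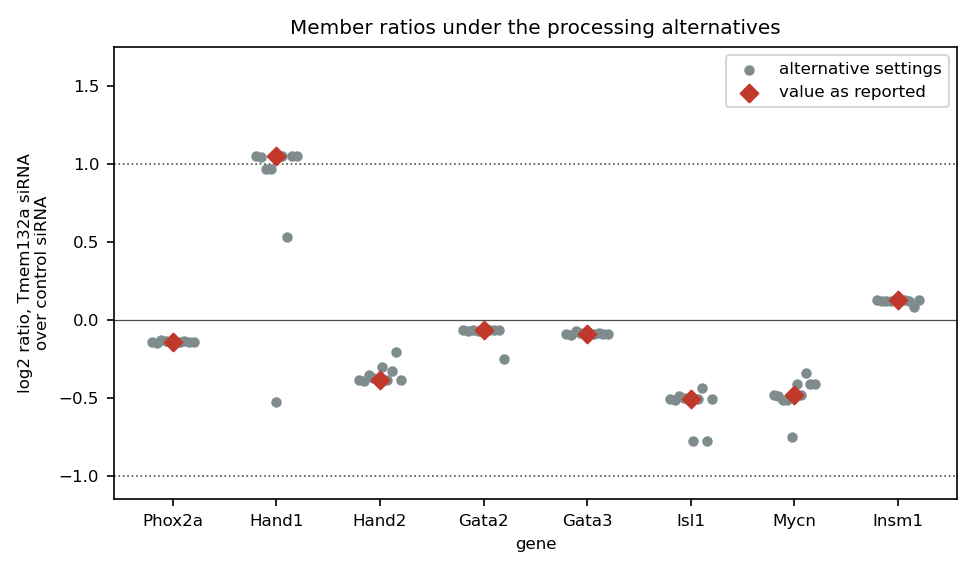
Log2 ratio, Tmem132a siRNA over control siRNA, of each member gene as reported (red diamonds) and under up to 10 processing alternatives (grey circles). Dotted lines mark 2-fold. Isl1, Mycn and Hand2 stayed below 0 and Insm1 above 0 in each alternative, while Hand1 ran from -0.53 to 1.05. Leaving out the rescaling or the floor could hardly move a value.

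The factors that work beside the members were described next, from 14 gene lists that hold 197 other genes, of which 119 passed the filter. Of these, Erbb3 and Epcam (2 genes) reached 2-fold higher and Acta2, Hmg20b, Mxd3 and Pnmt (4 genes) 2-fold lower, together 5.04%, beside 4.54% of all genes. The share is thus close to that of all genes. The Epcam and Pnmt calls rest on dim probe sets that a companion probe set contradicts, as described with these genes. At 1.5-fold, 7 of the 119 were higher and 16 lower, where 8.83% of all genes were higher and 9.1% lower. For each list below, the shares of all genes are 51.8% above 0 and 48.2% below. At 2-fold they are 2.1% higher and 2.44% lower.

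Other factors of the sympathoadrenal and neuroblastoma circuit showed no 2-fold difference. Of 15 on the array, 9 were bright enough for a value, 4 were above 0 and 5 below, with a median of -0.14. Lmo1, a LIM-only cofactor whose human gene carries neuroblastoma risk variants, had 902 with the Tmem132a siRNA and 1584.5 with the control siRNA, a ratio of -0.81. Tbx2, a T-box repressor of the same human circuit, had 1219.3 with the Tmem132a siRNA and 1910.2 with the control siRNA, a ratio of -0.65. Both were lower by over 1.5-fold, each on 1 probe set. Sox4, a SoxC factor of immature neurons, lay at 0.16, its 6 probe sets running from 0.02 to 0.32, and its relative Sox11 at -0.44, its 6 running from -0.95 to -0.06.

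HAND proteins bind DNA as dimers with E proteins, which Id proteins hold off DNA. Of 8 partner genes past the filter, 7 were below 0, where 48.2% of all genes were, with a median of -0.33. At least 1.5-fold lower was 1, where 9.1% of all genes were, and 0 were at least 2-fold lower, where 2.44% were. The E protein gene Tcf4 lay at -0.47, and its 5 probe sets ran from -0.68 to -0.17, with 2128.8 on the Tmem132a siRNA array and 3274.7 on the control siRNA array for its brightest. The other E protein genes had probe sets on both sides of 0: Tcf3 lay at -0.28, its 2 probe sets at -0.67 and 0.11, and Tcf12 at -0.14, its 5 running from -0.57 to 0.21. Among the inhibitors, Id3 had 2067.2 with the Tmem132a siRNA and 3405.5 with the control siRNA, a ratio of -0.72. Id2 lay at -0.38 over its 3 probe sets. The lowest of them, at -0.68, passed the filter only through the control siRNA array. With the 75th percentile filter Id2 lay at -0.23. Id1 lay at 0.28. Id4 lay at -0.09, its 3 probe sets running from -0.38 to 0.11. Tcf4 and Id2 thus lay below 0 in each probe set past the filter, as did Hand2 itself, and Id3 did on its 1 probe set. The probe sets of Tcf3, Tcf12 and Id4 did not agree on a direction. Tcf12 lay at 0.01 when probe sets that can share sequence were left out. Twist1, another bHLH partner, was dim, with 3.7 with the Tmem132a siRNA and 2.1 with the control siRNA.

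GATA factors work with FOG proteins and with LIM-only and LDB adaptors, and LDB adaptors also bind ISL1. Of 15 such genes on the array, 9 were bright enough for a value, 4 above 0 and 5 below, with a median of -0.03, and 0 were 2-fold either way. Zfpm1, which encodes FOG1, had 8724.4 with the Tmem132a siRNA and 8814.3 with the control siRNA for its brightest probe set, and a gene ratio of 0.14. Ldb1, the adaptor that links LIM domain proteins, lay at -0.06. Ssbp2, which stabilises LDB1, lay at -0.59, while its 3 probe sets ran from -1.02 to -0.17. Tal1, a bHLH partner of GATA factors in blood, had 547.4 with the Tmem132a siRNA and 809.3 with the control siRNA, a ratio of -0.56. Gata4 passed the filter with a ratio of 0.24, and Gata1, Gata5 and Gata6 did not pass it.

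INSM1 recruits the histone demethylase LSD1, encoded by Kdm1a, with its CoREST partners. Kdm1a had 5071.1 with the Tmem132a siRNA and 4830 with the control siRNA for its brightest probe set, and a gene ratio of 0.04. Of 10 genes of this list past the filter, 1 was at least 2-fold lower: Hmg20b, a subunit of that complex, with 140.6 on the Tmem132a siRNA array and 404.4 on the control siRNA array, a ratio of -1.52. Without probe sets that can share sequence Hmg20b had no value. Phf21a, the subunit that reads unmethylated histone H3, lay at -0.81, and its 4 probe sets ran from -1.02 to -0.63. Rcor2 had 609.9 with the Tmem132a siRNA and 1011.6 with the control siRNA, a ratio of -0.73, while its paralogues Rcor1 and Rcor3 lay at -0.18 and 0.05. The deacetylase genes of the complex differed, with Hdac1 at 0.71 and Hdac2 at -0.05. The list's median was -0.09.

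MYCN competes for MAX with the repressors of the MXD group. Of 14 partners and relatives past the filter, 1 was at least 2-fold lower, Mxd3, with a ratio of -1.23. Its probe sets gave 404.2, 184.7 and 153.6 with the Tmem132a siRNA, against 582.8, 670.1 and 381.7 with the control siRNA, and their ratios ran from -1.86 to -0.53. By the brightest of them alone Mxd3 was under 2-fold. Mxd4 lay at -0.69 and Mxd1 at -0.38. Mxi1 lay at -0.22 with probe sets on both sides of 0, at -0.70 and 0.25, and Mnt at -0.20. Mga lay at 0.11, its 3 probe sets running from -0.32 to 0.75. The highest Mga probe set passed the filter only through the Tmem132a siRNA array. Max itself had 202.7 with the Tmem132a siRNA and 142.3 with the control siRNA, a ratio of 0.51. Myc, the relative of Mycn, had 3070.6 with the Tmem132a siRNA and 2473.3 with the control siRNA, a ratio of 0.31, on the other side of 0 from Mycn. Fbxw7, whose product marks MYC proteins for breakdown, lay at 0.40, and Aurka, whose product protects MYCN from it, at -0.15. Of the other turnover genes, Usp7 lay at 0.39, its 7 probe sets running from 0.13 to 0.85, and Gsk3b at -0.07. Huwe1, the brightest gene of the list, had 3574 with the Tmem132a siRNA and 3748.8 with the control siRNA for its brightest probe set. Its gene ratio was -0.07. The list's median was -0.07.

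Genes that MYCN is known to activate differed little. All 20 passed the filter and 0 were 1.5-fold either way, where 8.83% of all genes were higher and 9.1% lower. Below 0 were 15, where 48.2% of all genes were, and their median was -0.06. The lowest was the nucleolar gene Nop56 at -0.43, with 5499.1 on the Tmem132a siRNA array and 7657.8 on the control siRNA array, and Fbl lay at -0.35. The highest was Polr1b, a subunit of RNA polymerase I, at 0.44. Odc1, a rate-limiting enzyme of polyamine synthesis, lay at -0.12, and Npm1 and Ncl each at -0.02.

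**Figure D4:**
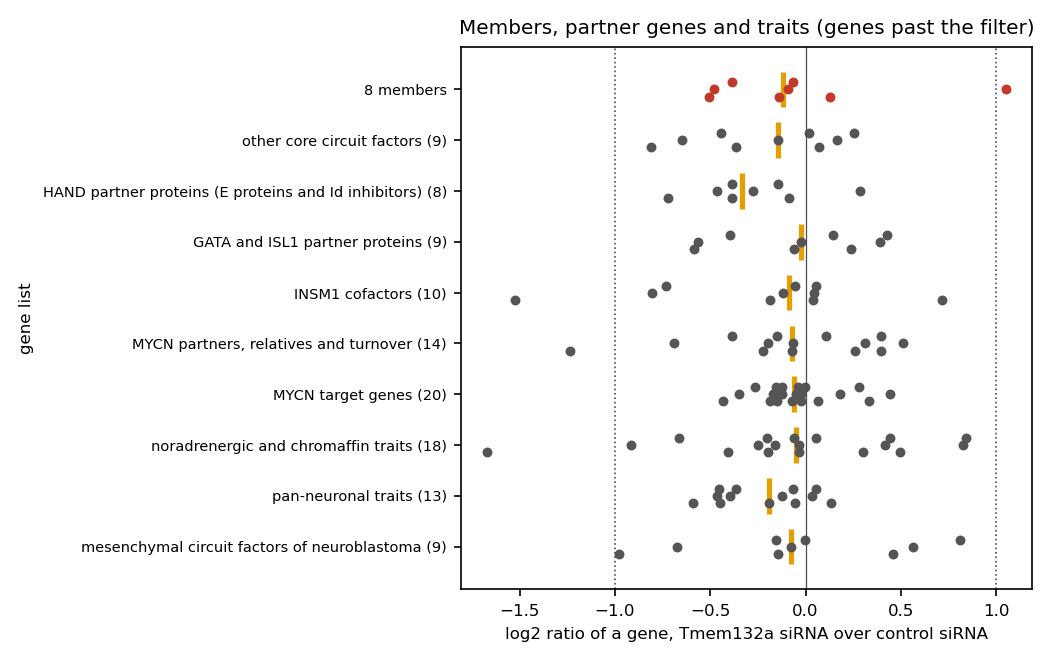
Log2 ratio of each gene past the filter, Tmem132a siRNA over control siRNA, for the 8 members (red) and for each list with at least 8 such genes (grey, their number in brackets). Orange bars are medians and dotted lines mark 2-fold. The medians lie between -0.33 for the HAND partners and -0.03 for the GATA and ISL1 partners.

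The traits that these factors maintain were also measured. Of 18 noradrenergic and chromaffin genes past the filter, 7 were above 0 and 11 below, with a median of -0.05. Dbh, which makes noradrenaline, lay at -0.41 over its 3 probe sets. The brightest of them differed little, with 491.2 with the Tmem132a siRNA and 515.5 with the control siRNA, a ratio of -0.07. The dimmer ones lay at -0.50 and -0.66. Th, the rate-limiting enzyme of catecholamine synthesis, was dim on both arrays, with 117.8 with the Tmem132a siRNA and 122.8 with the control siRNA. The neuropeptide gene Npy had 207.3 with the Tmem132a siRNA and 391 with the control siRNA, a ratio of -0.92. Ret, the receptor of GDNF family ligands, had a ratio of -0.66, and Chgb, a granin of secretory granules, one of -0.03. On the other side, 2 genes were at least 1.5-fold higher. Slc18a1, a vesicular monoamine transporter, had 161.7 with the Tmem132a siRNA and 91.3 with the control siRNA, a ratio of 0.82. Chrnb4, a nicotinic receptor subunit, had 107.9 with the Tmem132a siRNA and 60.3 with the control siRNA, a ratio of 0.84, and passed the filter only through the Tmem132a siRNA array. The receptor tyrosine kinase gene Alk lay at 0.50, Cyb561 at 0.44, the noradrenaline transporter gene Slc6a2 at 0.42 and Gch1, which makes a cofactor of tyrosine hydroxylase, at 0.30. Pnmt, which makes adrenaline, was the only one at 2-fold, at -1.67. It passed the filter through the control siRNA array alone, with 39.9 with the Tmem132a siRNA and 126.9 with the control siRNA, and a probe set below the filter ran the other way, with 85.8 with the Tmem132a siRNA and 28.3 with the control siRNA, so Pnmt has no settled direction.

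Genes of general neuronal identity were measured as a check of the cell line. Of 16 pan-neuronal genes 13 passed the filter, 10 of them below 0, where 48.2% of all genes were. Their median was -0.19, and 0 were at 2-fold, where 4.54% of all genes were. Stmn2, a microtubule regulator of growing axons, had 12985.8 with the Tmem132a siRNA and 16953.2 with the control siRNA for its brightest probe set, and a gene ratio of -0.45. Eno2, the neuronal enolase, lay at -0.59 and Elavl2, an RNA-binding protein of neurons, at -0.46. Nefl, Nefm and Dcx did not pass the filter.

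Factors and markers of the mesenchymal state of neuroblastoma were in part dim. Of 17 on the array, 9 were bright enough for a value, 3 above 0 and 6 below, with a median of -0.08. Prrx1, a defining factor of that state in human lines, had 55.3 with the Tmem132a siRNA and 23.3 with the control siRNA, below the filter. Vim, the intermediate filament vimentin, had 30241.1 with the Tmem132a siRNA and 30599.3 with the control siRNA, and its 3 probe sets ran from -0.02 to 0.02. Fn1, fibronectin, lay at -0.98, the mean of -1.30 and -0.66. The lower of these came from a probe set with 62.6 with the Tmem132a siRNA and 154.1 with the control siRNA, which passed the filter only through the control siRNA array. Runx1 lay at 0.81 on the 1 of its 6 probe sets that passed the filter, and at 0.23 with no filter.

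Markers of other cell types that share this lineage or tissue were mostly below the filter: 9 of 47 in 5 lists passed it. Of 10 Schwann and satellite glia genes 4 passed, with Sox10 at 82 on the Tmem132a siRNA array and 67.1 on the control siRNA array, below the filter. Erbb3 had 332.6 with the Tmem132a siRNA and 128.9 with the control siRNA, a ratio of 1.37. It was under 2-fold with no filter (0.68), where a probe set under the floor on both arrays entered its mean. Egr2 had a ratio of 0.28 made of opposite signs, -0.30 on its brightest probe set and 0.86 on the other. The latter passed the filter only through the Tmem132a siRNA array. Pmp22 lay at 0.06 and Mbp at -0.18, its 3 probe sets running from -0.55 to 0.08. The lowest Mbp probe set passed the filter only through the control siRNA array. Of 10 fibroblast genes only Acta2 passed (-1.96), on 1 probe set that can read more than 1 transcript or gene. That probe set had 2712.7 with the Tmem132a siRNA and 10520.2 with the control siRNA. With no filter Acta2 lay at -0.39, a mean that takes in dim probe sets at 0 and 0.78. Col1a1 was dim, with 3.9 with the Tmem132a siRNA and 29.4 with the control siRNA. Of 9 immune genes Csf1r (-0.10) and Laptm5 (0.09) passed, of 10 epithelial and endothelial genes Epcam (1.04), and of 8 adrenal cortex genes Star (0.96). The brightest probe set of Star lay at 0.58. Its other probe set past the filter, at 1.35, passed only through the Tmem132a siRNA array, with 160.3 there and 63.1 on the control siRNA array. Epcam passed the filter only through the Tmem132a siRNA array, with 146.1 with the Tmem132a siRNA and 70.9 with the control siRNA. Its other probe set, below the filter, ran the other way, with 5.5 with the Tmem132a siRNA and 25.2 with the control siRNA, so Epcam has no settled direction. The summed signal of the glial list was 4711 with the Tmem132a siRNA and 4254 with the control siRNA, and that of the adrenal cortex list 751.3 with the Tmem132a siRNA and 528.4 with the control siRNA. Immune markers summed to 829.1 with the Tmem132a siRNA and 637.5 with the control siRNA, and epithelial and endothelial markers to 579 with the Tmem132a siRNA and 436.8 with the control siRNA. Summed fibroblast signal was 3122.1 with the Tmem132a siRNA and 11151.2 with the control siRNA, most of it Acta2. Most of the glial sum was Pmp22, with 3408.3 with the Tmem132a siRNA and 3272.9 with the control siRNA. The sums include probe sets below the filter: only 7 of 24 glial, 2 of 14 adrenal cortex and 2 of 16 immune ones passed it. Of 16 epithelial and endothelial probe sets 1 passed. The sums therefore say little about these cell types, and the part of such cells in the members' ratios was not tested.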

How the data were processed

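Total RNA of 2 Neuro2a samples was measured on 1 array each. The authors deposited 1 linear signal intensity per probe set, made with MAS5 per the submitters' processing notes and the series text. The scaling step and detection calls are not given in the sources used here. Groups were taken from the sample titles.

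Each array was rescaled to a common 2% trimmed mean, a step that hardly moved the deposited signals. Of 45101 probe sets, 64 controls were left out. The platform annotation gave 34945 of the others 1 gene symbol, 932 several and 9160 none, and only the first kind gave gene values. Signals under the 20th percentile (14.5) were set to it, and probe sets with a mean signal under 77.25 were left out of gene values, so 19316 with 1 symbol remained. A gene is the mean log2 ratio of its probe sets, called at 2-fold. No test was made, since each group has 1 array. Python 3.11.15 with numpy 2.4.6, pandas 2.3.3, statsmodels 0.14.6 and matplotlib 3.10.9 was used, and the procedure was tested on simulated data. The simulated noise was the same at every signal, so that test does not cover the wider spread of dim probe sets.

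The members and lists were chosen with earlier results of these data known. Named are all member probe sets, and of each list up to 4 genes at 2-fold, or the 2 with the largest ratio, and its brightest gene. Other genes are given as examples of their role. The 10 alternatives changed the scaling, the filter, the floor or the choice of probe sets.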

Additional observations from a re-analysis of the deposited data

How the results depend on the processing

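Phox2a, Hand2, Gata3, Isl1, Mycn and Insm1 kept their direction and stayed under 2-fold in all 10 alternatives. The gene ratio of Gata2 did so in the 9 that gave it a value, though its probe sets differ in sign. Leaving out the rescaling or the floor could hardly move these ratios: the trimmed means were equal and no member signal lay under the floor. The filter and the choice of probe sets did not change Phox2a and Gata3, which have 1 probe set each. Past 1.5-fold lower were Isl1 with the 75th percentile filter and by its brightest probe set (-0.78 in both) and Mycn with no filter (-0.75). Isl1 ran from -0.78 to -0.44, Mycn from -0.75 to -0.34 and Hand2 from -0.39 to -0.21. The members' median ran from -0.26 to -0.10. Hand1 turned to -0.53 with no filter, was under 2-fold with quantile normalization (0.97), after loess (0.97) and a pseudocount of 79.2 (0.53), and had no value with a filter at the 75th percentile (462.8). In these 5 settings 0 members were 2-fold higher.

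All genes 2-fold higher and lower numbered 1312 and 881 with no filter, 44 and 90 with the 75th percentile filter, and 49 and 79 with the pseudocount. The listed genes 2-fold higher and lower numbered 9 and 8, 0 and 1, and 0 and 2 in the same settings, and 1 and 2 after dropping probe sets that can share sequence (suffix x, s or a). With quantile normalization, and likewise with loess, 1 was higher. Among the named genes, Pnmt (-0.02), Erbb3 (0.68), Epcam (0.12) and Acta2 (-0.39) were under 2-fold with no filter, averaged with dim probe sets. With the pseudocount Pnmt (-0.79), Erbb3 (0.98), Epcam (0.59) and Mxd3 (-0.98) were so, and Mxd3 also by its brightest probe set and with the 75th percentile filter (-0.53 in both). With quantile normalization and with loess Epcam was under 2-fold (0.99 in both) and Fn1 at least 2-fold lower (-1.02 and -1.01). Star was 2-fold higher with no filter (1.05), where a probe set below the filter entered its mean, and its brightest probe set lay at 0.58. Egr2 lay at -0.30 by its brightest probe set and without probe sets that can share sequence. Acta2, Epcam and Hmg20b had no value without such probe sets. The median of the GATA and ISL1 partners was 0.14 with no filter and -0.40 without probe sets that can share sequence, and among lists with at least 3 genes past the filter no other median changed sign. Apart from the settings that change which genes enter, the cause was not tested.

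No paired analysis was possible because each group has 1 array. Leaving out a replicate was not possible for the same reason. Signal over background limits the dim probe sets: ratios had an SD of 0.94 below the filter and 0.34 above a mean signal of 2000.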
